A study of Mus musculus with 15 samples.

Results

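The mitochondrial ribosomal protein genes of the nuclear genome were examined in extracellular vesicles (EVs) from mouse plasma. They were taken as every gene symbol made of Mrpl or Mrps, a number and at most 1 further letter, which gave 77 of the 43472 gene rows of the count tables. Of these, 48 carry a large subunit symbol (Mrpl) and 29 a small subunit symbol (Mrps). The series held 15 RNA-seq libraries, of which 3 came from wild type C57BL/6 mice (WT), 6 were dystrophic (genotype Sgcb null) and 6 were hypertrophic (genotype MAGIC F1). Sgcb encodes beta-sarcoglycan, a membrane protein whose loss causes a limb-girdle muscular dystrophy, and MAGIC-F1 is an engineered factor built from parts of hepatocyte growth factor. The methods of the study's paper count both Mstn-null and Magic-F1 mice as hypertrophic and name the Mstn-null mice for the RNA-seq, so the genotype of the sequenced group differs between the labels and the paper, and the labels name serum where the design text and the paper name plasma. Per the methods, the mice were age-matched adults and the EVs of several mice were pooled in a sample, so a library is an average over animals. The labels name no promoter for the MAGIC F1 factor and no treatment beyond the muscle phenotype.

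The mitochondrial ribosome translates the few messenger RNAs that mitochondrial DNA encodes, all of which specify subunits of the respiratory chain and ATP synthase. Its ribosomal RNAs come from mitochondrial DNA, whereas all of its proteins are encoded in the nucleus, made in the cytosol and imported. Part of these proteins have counterparts in the bacterial ribosome and the others were acquired in the mitochondrial lineage, and in a cell the proteins of a subunit are mostly needed in equal numbers. Muscle, heart and erythroid precursors are rich in mitochondria, while mature mammalian erythrocytes have none. By list, 46 of the 77 genes had a bacterial counterpart and 31 had none. The symbols follow an older nomenclature, and the proteins of Mrps18a and Mrps30 are now placed in the large subunit, whereas that of Mrps36 is now regarded as a component of the alpha-ketoglutarate dehydrogenase complex.

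The libraries were of very unequal depth. Reads counted on genes ranged from 27227 to 7738568 in WT, from 1170610 to 32563362 in dystrophic-derived EVs and from 328710 to 6461652 in hypertrophic-derived EVs. The number in the sample title and the number on the count table were exchanged between conditions for dystrophic replicates 4, 5 and 6 and hypertrophic replicates 1, 2 and 3, 6 libraries in all. The groups follow the labelled genotype, and for the numbers of genes counted and the genes named by condition the values with these labels exchanged are given as well. All 15 libraries had reads on Cd9, a tetraspanin of EV membranes, from 3924 to 33354 CPM (a gene's reads as a share of all reads on genes, scaled to a common total), while Cd63 was counted in 10 and Cd81 in 11. The hemoglobin genes Hba-a1 and Hbb-bs and the platelet chemokine genes Pf4 and Ppbp were counted in all 15 libraries too. The muscle gene Myh4 was at 0 in all of them and Acta1 was counted in 8, at no more than 203 CPM.

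Promoter letters, which did not enter the choice of the genes, were compared with those of all genes as a description, with no test. RefSeq promoter windows of 250 bases before and 50 bases after the transcription start were held for 68 of the 77 genes and for 27025 genes in all (build GRCm38.p6). The letters CCGGAAG on either strand, the core read by GABPA (also known as nuclear respiratory factor 2), were found in 24 of the 68 windows (35.3%), against 9.12% of all windows, so that 44 of the genes lacked them. YY1 letters (AAGATGG) were found in 13 (19.1%), against 6.48% of all windows, and NRF1 letters (GCGCATG) in 8 (11.8%), against 4.04%. The Sp1 letters GGGCGG were found in 34 (50%), against 35.9%. The TATA box letters TATAAA went the other way, with 4 windows (5.88%) against 14.2%. A match is a description of letters and not of binding. The windows of 4 genes are printed, chosen because Mrps16 and Mrps23 were counted in the most libraries, Mrpl52 had the highest level per length, and Mrps18a, like Mrpl52, holds both GABPA and YY1 letters. Mrps16 lies on the minus strand (chr14:20393441-20393740), and Mrps23 (chr11:88204138-88204437), Mrpl52 (chr14:54426659-54426958) and Mrps18a (chr17:46110754-46111053) lie on the plus strand. The sequences run 5′ to 3′ along the gene's strand, and capitals mark the letters of any of the 5 motifs on either strand.
Mrps16: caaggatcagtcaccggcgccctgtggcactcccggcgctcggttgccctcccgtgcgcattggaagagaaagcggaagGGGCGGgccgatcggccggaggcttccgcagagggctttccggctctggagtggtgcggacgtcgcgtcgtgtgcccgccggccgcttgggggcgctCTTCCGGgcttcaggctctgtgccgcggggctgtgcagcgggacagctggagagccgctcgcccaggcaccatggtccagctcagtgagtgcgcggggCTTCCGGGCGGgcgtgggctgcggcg
Mrps23: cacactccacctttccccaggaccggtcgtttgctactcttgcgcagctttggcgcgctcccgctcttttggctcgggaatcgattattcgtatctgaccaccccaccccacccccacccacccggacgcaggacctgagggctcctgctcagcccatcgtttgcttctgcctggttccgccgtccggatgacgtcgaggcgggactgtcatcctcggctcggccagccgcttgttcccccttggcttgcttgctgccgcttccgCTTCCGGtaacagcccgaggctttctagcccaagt
Mrpl52: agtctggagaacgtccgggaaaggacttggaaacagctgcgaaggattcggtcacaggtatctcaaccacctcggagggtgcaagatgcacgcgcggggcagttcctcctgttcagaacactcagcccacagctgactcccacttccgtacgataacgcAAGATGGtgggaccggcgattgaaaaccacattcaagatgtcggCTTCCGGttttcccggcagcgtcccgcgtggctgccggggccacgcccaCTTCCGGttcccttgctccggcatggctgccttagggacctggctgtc
Mrps18a: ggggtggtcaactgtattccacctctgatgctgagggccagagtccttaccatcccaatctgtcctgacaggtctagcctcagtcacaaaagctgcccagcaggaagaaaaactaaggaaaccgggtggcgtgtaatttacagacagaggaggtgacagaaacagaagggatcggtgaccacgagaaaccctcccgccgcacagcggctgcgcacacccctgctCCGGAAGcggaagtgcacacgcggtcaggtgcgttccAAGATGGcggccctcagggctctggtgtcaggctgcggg
In Mrps16 the last GABPA match overlapped an Sp1 match, as it did in Mrpl17. The GABPA letters end in the run AAG with which the YY1 letters begin, but in Mrpl52 and Mrps18a the matches stood apart. The 24 genes with GABPA letters were counted in a median of 5.5 libraries and the other 44 in a median of 4.

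Nearly all genes of the family had reads somewhere, each in a part of the libraries. Reads fell on 75 of the 77 genes (97.4%) in 1 library or more, against 30.6% of all gene rows. The same held for 78 of 81 nuclear respiratory chain subunits and 86 of 90 cytosolic ribosomal protein genes, so it was not particular to this family. None was counted in every library. Mrps16 and Mrps23 reached 9 libraries, the median was 5, and 8 genes were counted in 8 or 9 libraries, 49 in 4 to 7 and 18 in 2 or 3. The median of all 13281 genes with a read was 3 libraries, and 23.8% of those were seen in 1 library alone, which held for 0 of the 75. Mrpl1 and Mrpl53 were at 0 throughout. Mrpl1 encodes a large subunit protein with a bacterial counterpart, and none of its exon bases is shared with another gene. Mrpl53 shares 88% of its exon bases with other genes, and 82% of its 50-base words occur in their transcripts, and reads shared between genes may not have been counted.

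The number of genes counted varied far more between libraries of a condition than between conditions. In WT-derived EVs, 2, 30 and 30 of the 77 genes had a read. In dystrophic-derived EVs the numbers were 49, 21, 7, 2, 54 and 64, and in hypertrophic-derived EVs 21, 30, 7, 4, 4 and 38. The ranges of the 3 conditions overlapped. The number of all genes went up and down with that of the members. Of the 13281 genes with a read anywhere, 6%, 36.6% and 22.4% were counted in the WT libraries, 49.4%, 27.9%, 18.2%, 8.31%, 56.3% and 67.5% in the dystrophic ones and 28%, 39.8%, 14.8%, 10.3%, 6.13% and 43% in the hypertrophic ones, in the same order. The means of the members counted were 20.7 ± 16.2 (SD, n = 3) in WT, 32.8 ± 26.2 (SD, n = 6) in dystrophic- and 17.3 ± 14.6 (SD, n = 6) in hypertrophic-derived EVs, each SD being large beside its mean. With the labels of the 6 libraries of exchanged numbers swapped, they were 22.5 in dystrophic and 27.7 in hypertrophic, in the opposite order. Sampled down to the 27227 reads of the shallowest library, the means were 11.2 in WT, 19.6 in dystrophic and 12.2 in hypertrophic, and single libraries ranged from 1.71 to 33.8, and the differences between libraries were thus present at equal depth as well. What lay behind a lower number was not tested. The number of vesicles of a kind, the RNA in each and its amplification before sequencing cannot be told apart in such pooled material.

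The share of reads that fell on the 77 genes ran from 0.0294% to 0.254% over the 15 libraries, an 8.64-fold range, while the number of genes counted ran from 2 to 64, a 32-fold range. It was 0.0294% (95% Wilson interval 0.0149 to 0.058), 0.153% and 0.254% in the 3 WT libraries. In dystrophic-derived EVs it had a median of 0.226%, with 0.083% as the lowest and 0.244% as the highest value, and in hypertrophic-derived EVs a median of 0.198%, from 0.0711% to 0.245%. Without the 3 lowest shares, the other 12 lay between 0.153% and 0.254%, a 1.66-fold range that this choice of libraries narrows, and the number of genes behind them ran from 4 to 64, a 16-fold range. Hypertrophic replicate 5 put 0.245% of its reads (interval 0.228 to 0.262) on 4 genes, and dystrophic replicate 6 put 0.244% (0.242 to 0.245) on 64 genes. The 3 libraries of the lowest shares were WT replicate 1, with 8 member reads in all, dystrophic replicate 4 and hypertrophic replicate 3, so that each condition had 1. The group means were 0.145 ± 0.112% (SD, n = 3) in WT, 0.196 ± 0.061% (SD, n = 6) in dystrophic and 0.189 ± 0.0634% (SD, n = 6) in hypertrophic. They differed by less than the SD of any group. The intervals cover counting error only, since amplified reads are not independent molecules.

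**Figure D1:**
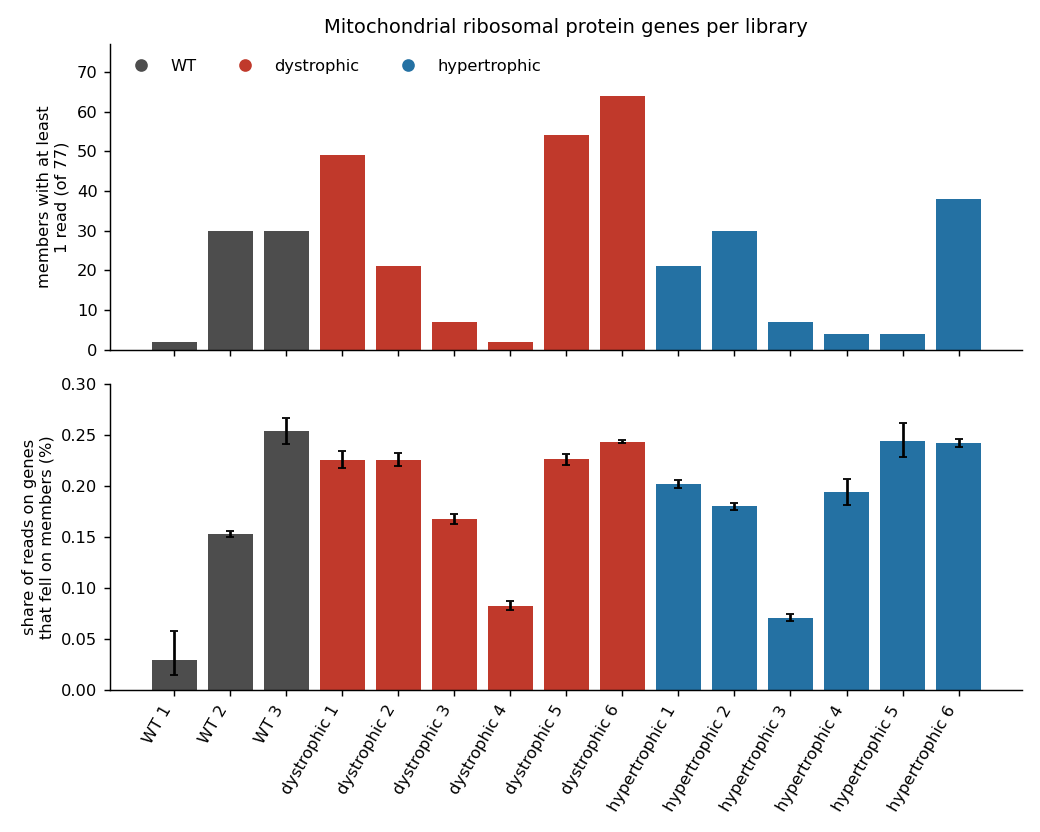
Upper bars: number of the 77 mitochondrial ribosomal protein genes with at least 1 read in each library. Lower bars: percent of the reads on genes that fell on them, with 95% Wilson intervals as error bars. The numbers run from 2 to 64 and the shares from 0.0294% to 0.254%.

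In several libraries with few genes counted, 1 to 6 genes held nearly all of the member reads. Dystrophic replicate 4, with 1608699 reads on genes, had 1264 reads on Mrpl16 and 72 on Mrpl54, 2 large subunit genes, and 0 on the other 75. Mrpl16 thus held 94.6% of its member reads. Hypertrophic replicate 5 had 418 reads on Mrps10, 195 on Mrps34, 190 on Mrps9 and 1 on Mrpl36, so that all but 1 read lay on small subunit genes. Hypertrophic replicate 4 had 375 reads on Mrpl40, 220 on Mrps16, 168 on Mrpl21 and 113 on Mrps26, and shared none of its 4 genes with hypertrophic replicate 5. Dystrophic replicate 3 had 5 small subunit genes, Mrps23, Mrps24, Mrps26, Mrps11 and Mrps17, at 519 to 1230 reads, and Mrpl22 and Mrpl54 at 587 and 31. In hypertrophic replicate 3, Mrpl12 held 52.3% of the member reads, and Mrpl55 and Mrpl54 most of the others, while Mrpl17, Mrpl24 and Mrps35 had 1 read each. WT replicate 1, with 7 reads on Mrpl20 and 1 on Mrpl33, was too shallow for such values. Mrpl12 encodes the stalk protein of the large subunit, which also binds the mitochondrial RNA polymerase.

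The 3 libraries with the most genes were spread more evenly. In dystrophic replicate 6 the gene with the most reads, Mrpl18, held 5.89% of the member reads, in dystrophic replicate 5 Mrpl30 held 7.06%, and in dystrophic replicate 1 Mrpl30 held 12.2%. The level of the counted genes was lower where their number was higher. Over genes with at least 10 reads, the median level was 593 CPM for 3 genes in hypertrophic replicate 5, 415 CPM for 2 genes in dystrophic replicate 4, 85 CPM for 20 genes in dystrophic replicate 2 and 28.9 CPM for 63 genes in dystrophic replicate 6. The shares of all members in these 4 libraries were 0.245%, 0.083%, 0.226% and 0.244%. For the nuclear respiratory chain subunits the same medians were 832, 324, 168 and 90.1 CPM, so the fall was not particular to the members. A limit in reads also stands at a higher CPM in a shallow library, with 3 reads at 9.13 CPM in hypertrophic replicate 5 and 0.0921 CPM in dystrophic replicate 6.

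**Figure D2:**
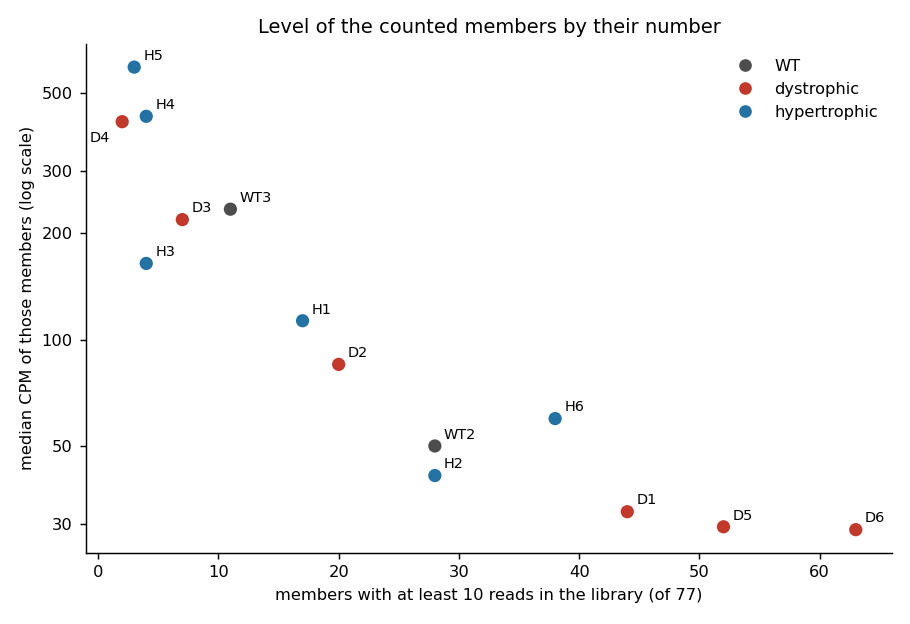
Each point is 1 library (WT, dystrophic D, hypertrophic H, with its replicate number). The x axis gives the number of the 77 genes with at least 10 reads and the y axis the median CPM of those genes on a log scale. The median level goes from 593 CPM over 3 genes to 28.9 CPM over 63 genes, and WT replicate 1 is left out because it has no gene with 10 reads.

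Most values of single genes were either 0 or at least 10 reads. Of the 1155 pairs of a gene and a library, 792 (68.6%) were at 0. Of the 363 with a read, 321 had at least 10, 233 had at least 100 and 42 fewer than 10, with a median of 190 reads. The 88.4% at 10 or more and 9.64% at 1 to 3 reads were near those of all genes, 84.3% and 13.3%. Many of the zeros stood where reads were predicted. A gene's reads in a library were predicted from its mean CPM in the other libraries of the same condition and the library's depth. Of the 671 pairs predicted at 10 reads or more, 419 (62.4%) were at 0. Over all genes the same held for 56.1% of pairs, so zeros of this kind were shared by genes in general. Of the 35 pairs at 1 to 3 reads, 19 were in WT replicate 3, whose other 11 counted genes had at least 38 reads. In that library 47.5% of all counted genes were at 1 to 3 reads, against 4.19% to 30.6% in the 13 libraries other than it and WT replicate 1. Of the 19 genes, 16 had at least 10 reads in dystrophic replicate 6, the deepest library, as had 63 of all 77 members (81.8%) and 7 of the other 11 genes. Counted at 10 or more reads, WT replicate 3 held 11 genes in place of 30.

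**Figure D3:**
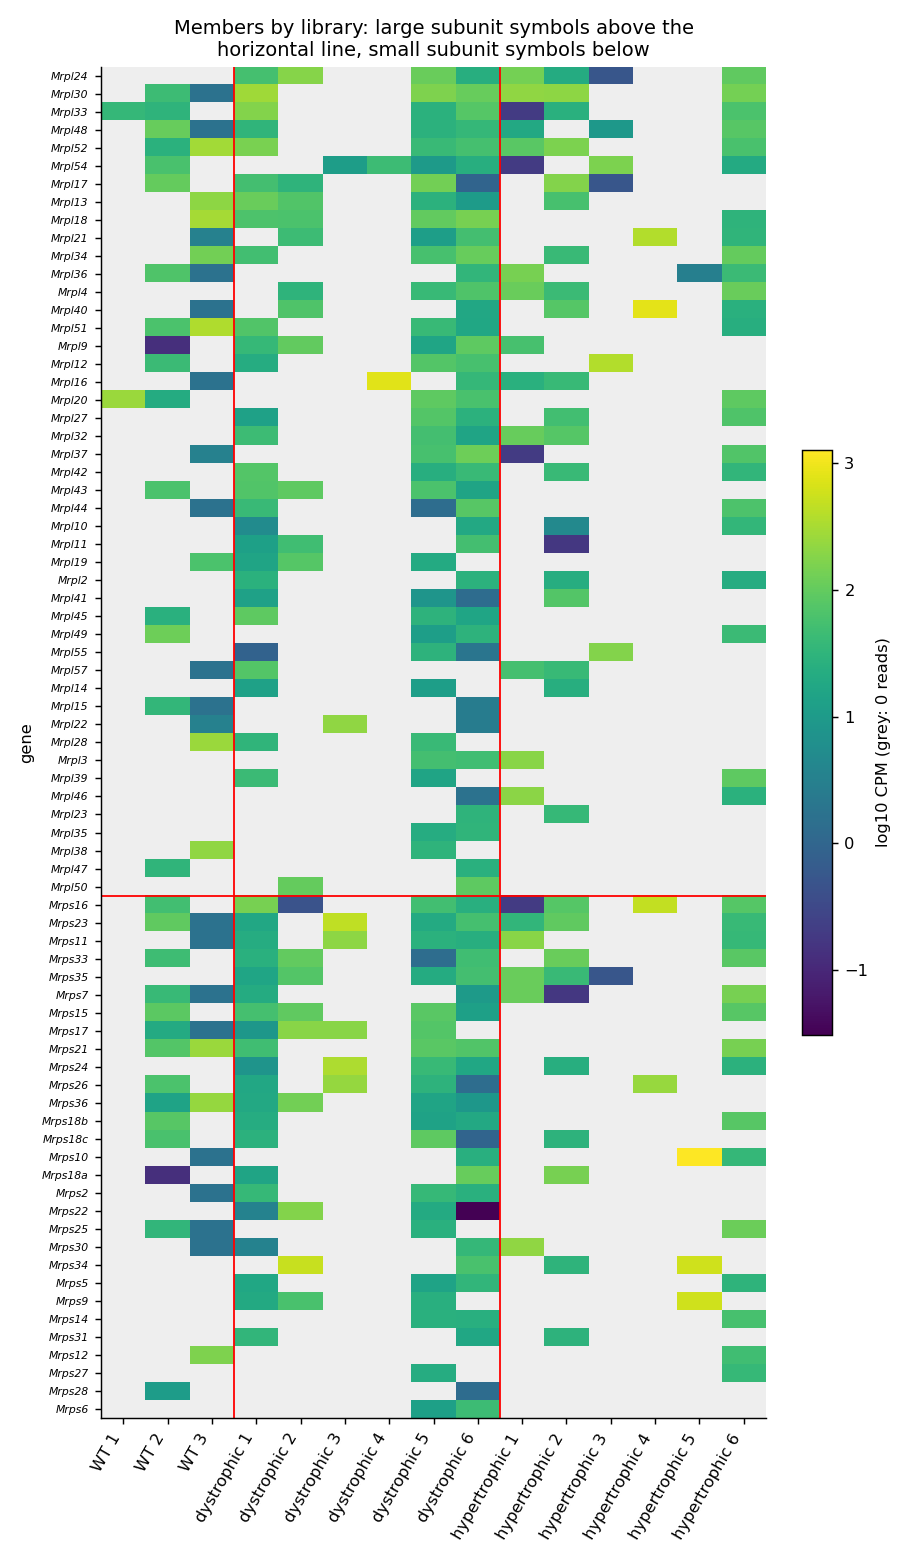
Level of the 75 counted genes (rows, large subunit symbols above the horizontal line and small subunit symbols below, each ordered by the number of libraries) in the 15 libraries (columns, conditions separated by vertical lines). Colour gives log10 CPM and grey marks 0 reads. Dystrophic replicates 1, 5 and 6 fill most rows, dystrophic replicate 4 and hypertrophic replicates 4 and 5 show 2 to 4 bright cells each, and no row is filled in all columns.

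Zeros were more frequent than in 2 related families. The 81 nuclear respiratory chain subunits, which assemble with the proteins made on the mitochondrial ribosome, were counted in a median of 9 libraries, with 35% of the pairs predicted at 10 reads found at 0. The 90 cytosolic ribosomal protein genes were counted in a median of 14 libraries, 44 of them in all 15, with 6.98% at 0. In every one of the 15 libraries the percentage of genes counted was highest for the cytosolic ribosomal proteins (61.1% to 95.6%), then the respiratory chain subunits (12.3% to 91.4%), then the mitochondrial ribosomal proteins (2.6% to 83.1%). The same order held for the share of reads, with 4.59% to 14.1%, 0.552% to 1.51% and 0.0294% to 0.254%. The lists differ in level, and no test of the difference between lists was made.

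**Figure D4:**
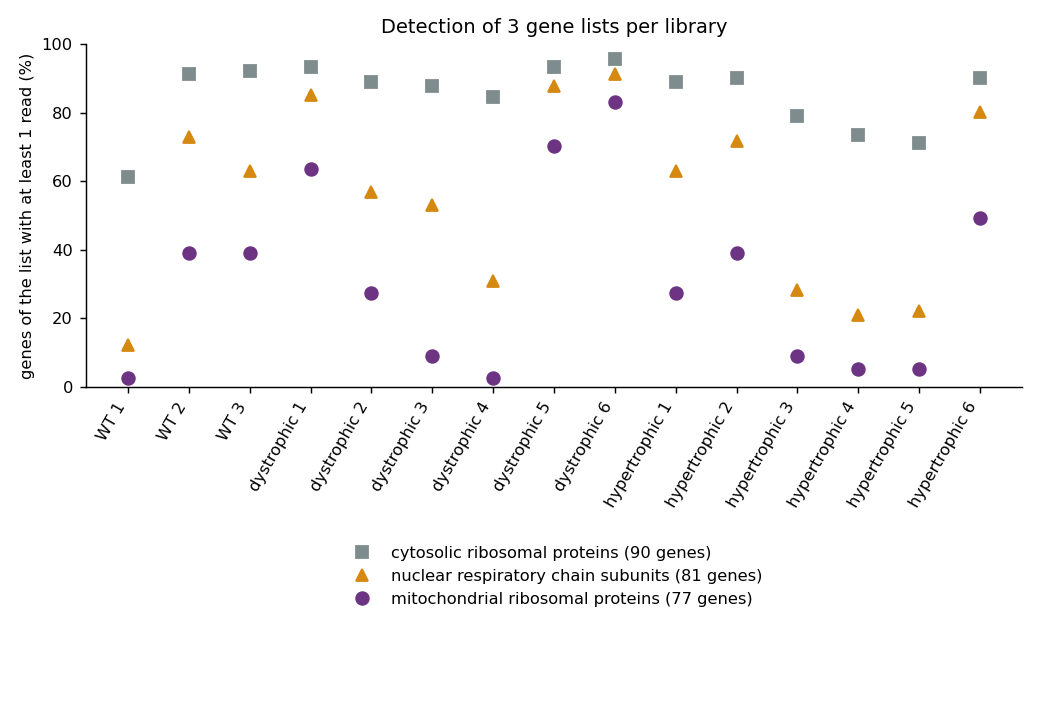
Percent of the genes of 3 lists with at least 1 read in each library. The circles of the mitochondrial ribosomal proteins lie below the triangles of the respiratory chain subunits, which lie below the squares of the cytosolic ribosomal proteins, in all 15 libraries.

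The genes found most often belonged to both subunits. Mrps16 encodes a small subunit protein with a bacterial counterpart, whose loss in humans impairs mitochondrial translation. It had 51.9 CPM in WT replicate 2 and 0 in the other 2 WT libraries, 0 to 144 CPM with a median of 13 in dystrophic- and 0 to 488 CPM with a median of 38.6 in hypertrophic-derived EVs. Mrps23, a small subunit protein without a bacterial counterpart, had 0, 94.3 and 1.66 CPM in WT, 0 to 459 CPM (median 19) in dystrophic and 0 to 95.5 CPM (median 17) in hypertrophic. Both genes thus had libraries at 0 in each condition, and the 3 ranges overlapped.

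Among large subunit genes, Mrpl30, Mrpl52, Mrpl24, Mrpl33, Mrpl54 and Mrpl48 were counted in 8 libraries. Mrpl30, which has a bacterial counterpart, had 0, 44.8 and 1.66 CPM in WT, 0 to 275 CPM (median 54.5) in dystrophic and 0 to 215 CPM (median 68.1) in hypertrophic, and it was at 109 CPM or more in 3 libraries of each mutant. Mrpl52, a protein of the mitochondrial lineage, had 0, 26.7 and 291 CPM in WT, 0 to 152 CPM (median 20.6) in dystrophic and 0 to 159 CPM (median 30.6) in hypertrophic. Mrpl24 was at 0 in the 3 WT libraries, at 0 to 188 CPM (median 40.1) in dystrophic and at 0 to 135 CPM (median 11) in hypertrophic. Its means were 63.1 CPM in dystrophic and 42.1 CPM in hypertrophic, beside an average floor of 3 reads per library in WT of 38.5 CPM, which was 2.69 CPM without WT replicate 1. Without dystrophic replicate 2 the dystrophic mean was 38.2 CPM, and without hypertrophic replicate 1 the hypertrophic mean was 23.5 CPM, so no fold against WT is given. Mrpl54, also without a bacterial counterpart, was the one gene with reads in dystrophic replicates 3 and 4 and hypertrophic replicate 3 alike, at 11.6, 44.8 and 155 CPM. Mrpl33 had 36.7, 30.6 and 0 CPM in WT, the first of these from 1 read. Mrpl48 had 0, 110 and 1.66 CPM in WT and no more than 36.7 CPM in dystrophic and 81.7 CPM in hypertrophic. Mrps11, a platform protein with a bacterial counterpart, and Mrpl17 were counted in 7 libraries each, with highest values of 207 CPM in dystrophic replicate 3 and 180 CPM in hypertrophic replicate 2. Mrps33, Mrps7 and Mrps35 also reached 7 libraries, at lower means of 28, 22 and 21.3 CPM over all libraries against 34.2 and 33.4 CPM for these.

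Per length of the principal transcript, the mean level over the 15 libraries was highest for Mrpl52, at 139 CPM per kb. Mrps21, Mrps10, Mrps34, Mrpl30, Mrpl33, Mrpl34, Mrpl40, Mrpl16 and Mrpl20 followed at 92.5, 87.4, 87, 78.7, 60.6, 53.7, 53.2, 51.1 and 45.4 CPM per kb. Several of these means rested on 1 library. Mrps10, a protein of the small subunit head with a bacterial counterpart, had 1272 CPM in hypertrophic replicate 5 and no more than 35.9 CPM in any other library. Mrpl40 had 831 CPM in hypertrophic replicate 4 and no more than 76.4 CPM elsewhere, and Mrpl16, which lies near the tRNA sites of the large subunit, had 786 CPM in dystrophic replicate 4 and no more than 39.7 CPM elsewhere. Mrps34, a small subunit protein of the mitochondrial lineage, had 516 CPM in dystrophic replicate 2, 593 CPM in hypertrophic replicate 5, 58.9 and 30.3 CPM in 2 further libraries and 0 in WT. It shares 77.8% of its exon bases with other genes, so its reads are uncertain. Mrps21, in contrast, had 75.2 and 256 CPM in 2 WT libraries, 0 to 85.1 CPM (median 24.3) in dystrophic and 145 CPM in 1 hypertrophic library. Mrpl34 had 131 CPM in 1 WT library and at most 106 and 101 CPM in dystrophic and hypertrophic. The 257 CPM of Mrpl20 in WT replicate 1 stood for 7 reads. Its other 4 values above 0 lay between 21.1 and 92.4 CPM, and it was at 0 in 10 libraries.

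Counts of libraries were alike over subunits and origins. Large subunit genes were counted in a median of 5 libraries and small subunit genes in 4. Genes with a bacterial counterpart were counted in a median of 5 libraries and those without in 4, and 3 classes by transcript length (418 to 1031, 1056 to 1764 and 1849 to 7300 bases) in 4.5, 5 and 4. More reads lay on large than on small subunit genes in 12 of the 15 libraries, and 2 libraries, WT replicate 1 and dystrophic replicate 4, had no small subunit gene at all. Among the 3 paralogs of the S18 family, Mrps18a was counted in 4 libraries, Mrps18b in 5 and Mrps18c in 5. Mrps18a had at most 0.129 CPM in WT, 106 CPM in dystrophic replicate 6 and 143 CPM in hypertrophic replicate 2. Mrps18b had 81.2 CPM in WT replicate 2, 14.2 to 22.2 CPM in 3 dystrophic libraries and 78.8 CPM in hypertrophic replicate 6, with 30.5% of its exon bases shared with other genes. Mrps18c had 59.6 CPM in WT replicate 2, at most 91.7 CPM in dystrophic and 29.3 CPM in 1 hypertrophic library. Of genes with special roles, Mrpl44, a large subunit protein related to RNase III, had 80.6 and 65.2 CPM as its highest values in dystrophic and hypertrophic. Mrps12, a protein of the decoding centre, had 163 CPM in WT replicate 3, 49.4 CPM in hypertrophic replicate 6 and 0 in all other libraries. It was the one counted gene at 0 in all 6 dystrophic libraries (1.33%, all genes 10.5%). Its WT mean of 54.3 CPM was at least 40.4-fold and its hypertrophic mean of 8.23 CPM at least 6.12-fold above the dystrophic floor. Each mean came from 1 library. Without WT replicate 3 or hypertrophic replicate 6 the mean in question was 0, and its bound does not apply.

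By condition, 48 of the genes were counted in at least 1 WT library, 74 in at least 1 dystrophic library and 59 in at least 1 hypertrophic library. These were 64%, 98.7% and 78.7% of the 75, beside 45.2%, 89.5% and 67.4% of all genes with a read. In all 3 conditions 35 were counted (46.7%, all genes 35.4%) and 23 in dystrophic and hypertrophic alone (30.7%, all genes 23.8%). In WT and dystrophic alone 12 were counted (16%, all genes 6.33%) and in WT and hypertrophic alone 1 (Mrps12, 1.33%, all genes 1.14%). In dystrophic alone 4 were counted (Mrpl35, Mrpl50, Mrps6 and Mrps22, 5.33%, all genes 23.9%). No member was counted in WT or in hypertrophic alone, as 2.28% and 7.12% of all genes were. With the 6 labels exchanged, an alternative chosen after seeing the data, 62 members were counted in dystrophic (82.7%, all genes 74.8%) and 74 in hypertrophic (98.7%, all genes 86.5%). Then 4 were counted in hypertrophic alone (Mrpl35, Mrps6, Mrps14 and Mrps27; 5.33%, all genes 18.9%) and 0 in dystrophic alone (all genes 9.52%). In the 9 libraries with matching numbers, 48, 56 and 41 members were counted in WT, dystrophic and hypertrophic. These were 67.6%, 78.9% and 57.7% of the 71 members with a read there, beside 57%, 76.5% and 58.6% of all genes. WT had only 3 libraries, of which 1 held 2 of the genes. The dystrophic number came mostly from replicates 1, 5 and 6, and without them it was 28. Dystrophic replicates 5 and 6, with 54 and 64 of the genes, had 45 in common (83.3% of the former's and 70.3% of the latter's). WT replicates 2 and 3, with 30 each, had 12 in common (40% of each). Of these 12, 8 had 1 to 3 reads in WT replicate 3. Such overlap rises with the number of genes that each library holds, and it was not compared with the overlap of all genes. Over all pairs of libraries the shared part of the genes counted in either was 15.5% on average within a condition (33 pairs) and 14.7% between conditions (72 pairs). The 75 genes showed 69 different patterns of presence over the libraries.

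The question of whether a gene of the family differed between conditions was put with edgeR's quasi-likelihood test on all genes. After a filter on low counts 6887 genes were tested, among them 60 of the 77, and the estimated biological coefficient of variation was 3.04. No member passed an adjusted p of 0.05 in dystrophic against WT (0 of 60, background 0.0145% of all genes tested), in hypertrophic against WT (0 of 60, background 0.029%) or in hypertrophic against dystrophic (0 of 60, background 0.0145%). At an unadjusted p under 0.05, dystrophic against WT held 0 members (background 2.02%), hypertrophic against WT 6 members, all lower in hypertrophic (background 8.02%, and 6.35% for lower), and hypertrophic against dystrophic 8 members, all lower in hypertrophic (background 12%, and 11.4% for lower). These member shares, 10% and 13.3%, were close to the background. The median log2 fold change of the members was 2.75 in dystrophic against WT, 1.57 in hypertrophic against WT and -0.38 in hypertrophic against dystrophic, beside 1.38, 0.66 and -0.52 over all genes tested. These medians depended on single libraries and on the fit. The filter let other numbers of members through in several of these fits (members tested in brackets), so the medians are not all over the same genes. In dystrophic against WT the member median was 0.79 without dystrophic replicate 1 (50), 8.01 without WT replicate 3 (70) and 0.14 in the 9 libraries with matching numbers (28). In hypertrophic against WT it was 0.16 without hypertrophic replicate 6 (53), 6.51 without WT replicate 3 (70) and -0.58 in the 9 libraries (28). In hypertrophic against dystrophic it was -1.11 without hypertrophic replicate 6 (53), -1.99 with the title series as covariate (60) and 0.06 with the 6 labels exchanged (60). The title series is the start of the number in the sample title, GC034 or GC038, and no label says what it stands for. All WT libraries were in GC034 and each mutant had libraries in both, so the comparisons with WT are partly confounded with it. The median of all genes tested moved as well, over the alternatives from 0.53 to 8.15, -0.12 to 5.96 and -1.18 to -0.12 in the 3 comparisons. Each pair of these comparisons shares the libraries of a condition.

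**Figure D5:**
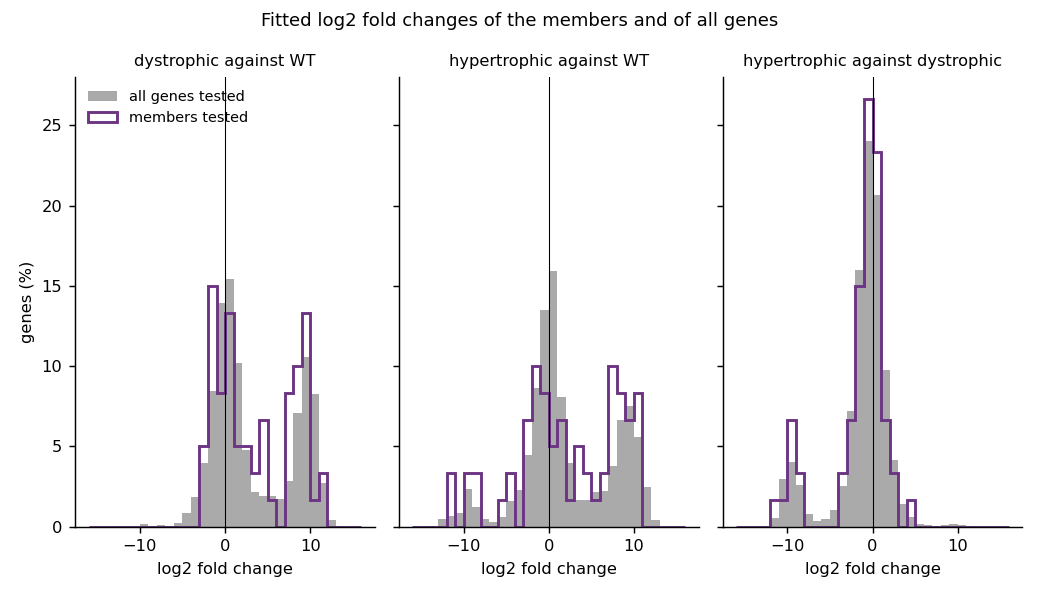
Distribution of the fitted edgeR log2 fold changes of the 60 members tested (outline) and of all 6887 genes tested (grey), in percent of each, in bins of 1. In all 3 comparisons the outline follows the grey shape, with a second peak far from 0. Genes with 0 reads in a condition lie there, and also some with 1 read, such as Mrpl9 in WT.

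Of the 8 genes at an unadjusted p under 0.05 in hypertrophic against dystrophic, 7 had 0 reads in the 6 hypertrophic libraries, as had 16 of the 75 in all (21.3%, beside 32.6% of all genes with a read). A gene at 0 in hypertrophic passed the filter through its reads in the other conditions alone, so it could only come out lower in hypertrophic. With only hypertrophic and dystrophic fitted, 11 members were tested by edgeR and 0 reached an unadjusted p under 0.05. With the 6 labels exchanged, only Mrpl57 was at 0 in hypertrophic (1.33%, all genes 13.5%). In dystrophic 13 members were then at 0 (17.3%, all genes 25.2%). Mrps17, a small subunit protein with a bacterial counterpart, had 0, 20.7 and 1.66 CPM in WT, 0 to 196 CPM (median 41.6, 4 libraries with reads) in dystrophic and 0 in hypertrophic. Against the floor of 3 reads per library in hypertrophic, 3.15 CPM on average, its dystrophic mean of 78.8 CPM was at least 25-fold higher, and its fitted log2 fold change in hypertrophic against dystrophic was -11.05 (SE 3.85, edgeR adjusted p = 0.123). Mrpl43, a large subunit protein of the mitochondrial lineage, had 63.6 CPM in 1 WT library, 0 to 91.7 CPM (median 38.5, 4 libraries) in dystrophic and 0 in hypertrophic. Its dystrophic mean was at least 12.6-fold above the hypertrophic floor, with a fitted log2 fold change of -10.47 (SE 3.79, edgeR adjusted p = 0.123), and 33.4% of its exon bases are shared with other genes. The hypertrophic floor was 1.96 CPM without hypertrophic replicate 5, the shallowest of these libraries, and the bounds for Mrps17 and Mrpl43 were then 40.2-fold and 20.3-fold. Dystrophic replicate 5, with Mrps17 at 74.7 CPM and Mrpl43 at 61.6 CPM, is among the 6 libraries of exchanged numbers. With the labels exchanged, hypertrophic thus held reads of both genes, and neither bound applies. The fitted log2 values of genes at 0 in a condition depend on the count that the fit adds and are no bound on the change.

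Mrps36 had 0, 14.6 and 234 CPM in WT, 0 to 134 CPM (median 12, 4 libraries) in dystrophic and 0 in hypertrophic. Its mean was at least 26.3-fold higher in WT and at least 9.37-fold higher in dystrophic than the hypertrophic floor, and these bounds were 2.32-fold without WT replicate 3 and 2.72-fold without dystrophic replicate 2. Without hypertrophic replicate 5 they were 42.4-fold and 15.1-fold. With the 6 labels exchanged, the 15.6 CPM of dystrophic replicate 5 count as hypertrophic, and neither bound applies. The fitted log2 fold changes were -11.78 (SE 4.02, edgeR adjusted p = 0.267) and -9.79 (SE 3.62, edgeR adjusted p = 0.123). Mrpl28, a large subunit protein with a bacterial counterpart, had 258 CPM in 1 WT library and 31.6 and 41.9 CPM in 2 dystrophic libraries, with a fitted log2 value of -11.83 for hypertrophic against WT. Mrpl19 had 63.2 CPM in 1 WT library and 15.4 to 78.3 CPM in 3 dystrophic libraries, and Mrpl45, which anchors the ribosome to the inner membrane, had 26.1 CPM in 1 WT library and 15.9 to 92.3 CPM in 3 dystrophic libraries. The fitted log2 values in hypertrophic against WT and against dystrophic were -9.82 and -9.21 for Mrpl19 and -8.54 and -9.86 for Mrpl45. That of Mrpl43 in hypertrophic against WT was -9.80 and that of Mrps17 was -8.34. The WT reads of Mrpl28 and Mrpl19 lay in WT replicate 3 alone and those of Mrpl43 and Mrpl45 in WT replicate 2 alone, and without that library the fitted value against WT was 0 for each of the 4. That of Mrps17 was -5.68 without WT replicate 2.

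Mrps2, a small subunit protein with a bacterial counterpart, had 1.66 CPM in 1 WT library, 25.7 to 38.8 CPM in 3 dystrophic libraries and 0 in hypertrophic, with a fitted log2 fold change of -9.50 against dystrophic. Mrpl11, of the large subunit stalk base, had 12.8 to 52 CPM in 3 dystrophic libraries and 1 read in 1 hypertrophic library, with -8.21 (edgeR adjusted p = 0.223). In each of these 8 genes 2 to 4 dystrophic libraries had reads and the others were at 0, so the dystrophic and hypertrophic ranges overlapped at 0. When the 6 libraries with exchanged numbers were given the other condition's label, Mrps2, Mrpl28 and Mrpl11 turned to 1.01, 0.61 and 0.46 in hypertrophic against dystrophic, and Mrps17 to 0.77 in hypertrophic against WT. Mrps22, a small subunit protein of the mitochondrial lineage that did not pass the filter, had 0.0307 to 174 CPM in 4 dystrophic libraries and 0 in WT and hypertrophic.

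In the other direction 27 of the 75 genes (36%) were at 0 in all 3 WT libraries, beside 54.8% of all genes with a read. DESeq2 on the same genes called 7 members in dystrophic against WT, all higher (background 19.1%, and 18.9% for higher), 10 in hypertrophic against WT, of which 7 were higher (background 22.2%, and 18.8% for higher), and 4 in hypertrophic against dystrophic, all lower (background 4.69%, and 4.39% for lower). Each call had a condition with 0 reads, so that its gene passed the filter through the other conditions alone, and none was called by edgeR. The 7 genes of the first comparison, Mrpl32, Mrpl27, Mrpl3, Mrpl39, Mrps14, Mrps31 and Mrpl41, were also the 7 higher ones of the second, which shares its WT libraries. Mrpl32, whose maturation by a mitochondrial protease precedes its assembly, had 0 in WT, 0 to 52.3 CPM (median 7.49) in dystrophic and 0 to 108 CPM (median 0) in hypertrophic. Mrpl27, near the peptidyl transferase centre, had 0 to 75.1 CPM (median 6.83) in dystrophic and 0 to 67.9 CPM (median 0) in hypertrophic. Mrpl3 had 52.3 and 49.8 CPM in 2 dystrophic libraries and 193 CPM in 1 hypertrophic library. Mrpl39 had 43.6 and 15.2 CPM in 2 dystrophic and 92.7 CPM in 1 hypertrophic library, and Mrps14 25.9 and 25.6 CPM in 2 dystrophic and 58.2 CPM in 1 hypertrophic library. The means of these 5 genes, at most 32.2 CPM, lay below the WT floor of 38.5 CPM (2.69 CPM without WT replicate 1), so no fold against WT is given. The lower calls were Mrpl43, Mrpl28 and Mrps36 against WT, and the same 3 with Mrps17 against dystrophic.

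Other genes of the pathway were also counted in few libraries. The 6 mitoribosomal proteins with other symbols were counted in a median of 5.5 libraries, with Dap3, a GTP-binding small subunit protein, in 7, Chchd1 and Ict1 in 6, Aurkaip1 and Gadd45gip1 in 5 and Ptcd3 in 1. The 14 translation factors had a median of 2.5 libraries. The recycling factor Mrrf was counted in 8, and the mRNA stabiliser Slirp and the membrane insertase Oxa1l in 7 each, while the elongation factor Gfm2 was at 0. The 17 genes of assembly and rRNA modification and the 19 synthetases that charge mitochondrial tRNAs both had a median of 2. Lars2 was the one synthetase in all 15 libraries, at a mean of 1221 CPM. No gene of these 4 lists passed edgeR's adjusted p of 0.05 in any of the 3 comparisons. At an unadjusted p under 0.05 the synthetases held 1 higher gene of 9 tested in dystrophic against WT (all genes 107 of 6887 higher). They held 1 lower in hypertrophic against WT (all genes 6.35% lower) and 3 lower in hypertrophic against dystrophic (all genes 11.4% lower). With so few genes tested no result about the synthetases is drawn from these. The other 3 lists, with 5, 6 and 4 genes tested in the order above, held none.

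The RNA core of the same ribosome was plentiful. The 2 mitochondrial rRNAs took 19 to 20.7% of the reads on genes in the WT libraries, 5.43% to 18.1% in dystrophic- and 5% to 16.2% in hypertrophic-derived EVs. The 3 WT values thus lay above all others, and this difference in summed share was not tested. The rRNA share exceeded that of the 77 protein genes in every library. WT replicates 1 and 2, with 2 and 30 genes, had 19.8% and 20.7%, and dystrophic replicates 4, 3 and 6, with 2, 7 and 64 genes, had 18.1%, 11.9% and 6.55%. Single mitochondrially encoded genes were part of the edgeR fit, which tested 9 of them. Of these 9, 1 passed the adjusted p threshold in dystrophic against WT and 2 in hypertrophic against WT, all lower than in WT. No other gene passed in these comparisons. In hypertrophic against dystrophic 0 of the 9 passed. Whether the rRNAs were among the genes that passed is not given here. Erythroid marker transcripts summed to 22902 to 88148 CPM in WT, 47060 to 155950 CPM in dystrophic and 29999 to 88291 CPM in hypertrophic, and platelet markers to 18354 to 28281, 9291 to 19884 and 14290 to 32865 CPM. The 2 libraries with 64 and 2 genes, dystrophic replicates 6 and 4, had 68462 and 155950 CPM of erythroid and 17944 and 19884 CPM of platelet markers. The part of these cell types in the member counts was not tested.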

How the data were processed

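Plasma EV RNA had been amplified before library preparation, sequenced as single reads and aligned with TopHat to mm10, and the submitters' processing notes also name HTSeq and DESeq. The authors deposited raw counts per gene symbol for each library, without normalization or filter. Strand setting, annotation and the counting parameters are not given in the sources used here, so reads of overlapping genes are uncertain (32 members share exon bases with other genes, 3 of them over 50%). The 5 summary lines, 57.9% to 99.2% of the entries of a table, name no gene and were dropped.

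Groups followed the labelled genotype. Replicate numbers follow sample order and pair nothing, and no label says whether samples of a group came from separate animals, so p-values measure the spread between these samples. CPM was computed over all gene rows, shares with Wilson intervals (95%), and floors as 3 reads per library. Tests used edgeR 4.0.16 (TMM, filterByExpr, glmQLFit and glmQLFTest, Benjamini-Hochberg over all genes) on the 15 libraries in 1 fit, with DESeq2 1.42.0 as an alternative. Both were also run on simulated counts in which the shallowest libraries were given a higher depth. That run therefore does not cover the depths of those libraries. Positions, lengths and shared 50-base words came from GENCODE M21 and promoters from RefSeq, both on GRCm38. Further alternatives were other normalizations, filters, labels and left-out libraries. Counts of members per condition without chosen libraries were added after seeing the data. The members and lists were chosen with earlier results of these data known. Named were the 10 members in the most libraries, the 10 with the highest CPM per kb, those with the lowest p in each comparison, those at 0 throughout, the S18 family and members with special roles.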

Additional observations from a re-analysis of the deposited data

Results flagged for a closer look

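In groups of 6 libraries the highest or lowest value was compared with its nearest neighbour by Dixon's test at the 95% level, which by chance alone picks about 1 in 20 groups of values. That rate does not hold for genes at 0 in most libraries, since a gene with reads in 1 of 6 libraries is picked whatever its value. Of 86 groups of values checked, 40 were picked, of which 38 were levels of the 40 named members, and 14 of these 38 had reads in 1 library of the condition alone. Dystrophic replicate 1 was the highest library for Mrpl39 at 43.6 CPM, Mrpl45 at 92.3 CPM, Mrpl52 at 152 CPM and Mrps16 at 144 CPM. Dystrophic replicate 2 was the highest library for Mrpl19 at 78.3 CPM, Mrpl40 at 68.1 CPM, Mrps22 at 174 CPM, Mrps34 at 516 CPM and Mrps36 at 134 CPM. Dystrophic replicate 3 was the highest library for Mrps11 at 207 CPM and Mrps23 at 459 CPM. Dystrophic replicate 4 was the highest library for Mrpl16 at 786 CPM. Dystrophic replicate 5 was the highest library for Mrpl27 at 75.1 CPM and Mrps18c at 91.7 CPM. Dystrophic replicate 6 was the highest library for Mrps10 at 25.4 CPM, Mrps18a at 106 CPM and Mrps30 at 37.3 CPM. Hypertrophic replicate 1 was the highest library for Mrpl3 at 193 CPM, Mrps11 at 192 CPM and Mrps30 at 215 CPM. Hypertrophic replicate 2 was the highest library for Mrpl11 at 0.172 CPM, Mrpl17 at 180 CPM, Mrps18a at 143 CPM and Mrps18c at 29.3 CPM. Hypertrophic replicate 3 was the highest library for Mrpl12 at 372 CPM and Mrpl54 at 155 CPM. Hypertrophic replicate 4 was the highest library for Mrpl40 at 831 CPM and Mrps16 at 488 CPM. Hypertrophic replicate 5 was the highest library for Mrps10 at 1272 CPM and Mrps34 at 593 CPM. Hypertrophic replicate 6 was the highest library for Mrpl20 at 90.1 CPM, Mrpl39 at 92.7 CPM, Mrpl44 at 65.2 CPM, Mrpl48 at 81.7 CPM, Mrps12 at 49.4 CPM, Mrps14 at 58.2 CPM, Mrps18b at 78.8 CPM and Mrps21 at 145 CPM. The other 2 values picked were the 32563362 reads on genes of dystrophic replicate 6, the deepest library, and the share of 0.0711% on members in hypertrophic replicate 3. What set these libraries apart was not tested.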

How the results depend on the processing

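No paired analysis was possible because the replicate numbers were given in sample order and no label ties samples of different conditions. The means of members counted and of read shares moved by less than 1 SD under every alternative run, left-out libraries included, but with labels exchanged the mean of members counted was lower in dystrophic (22.5) than in hypertrophic (27.7). Without 1 library, the mean of members counted ranged from 16 to 30 in WT, 26.6 to 39 in dystrophic and 13.2 to 20 in hypertrophic, and the mean share from 0.0913% to 0.204%, 0.186% to 0.218% and 0.178% to 0.213%. Without dystrophic replicates 1, 5 and 6, chosen after seeing the data, 28 members were counted in dystrophic. Members called were 0 in every edgeR fit (0 to 0 without 1 library) and 7, 4 and 10 by DESeq2 in dystrophic against WT, hypertrophic against dystrophic and hypertrophic against WT.

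Members at an unadjusted p under 0.05 moved more, as did the number of all genes tested, given in brackets. Dystrophic against WT gave 10 of 60 by DESeq2 (1491 of 6887), 1 of 60 without TMM (193 of 6887) and 1 of 60 by TMMwsp (139 of 6887). It gave 2 of 75 without a filter (580 of 13281) and 1 of 62 with 10 reads in 3 libraries (145 of 7028). The title series as covariate gave 4 of 60 (239 of 6887) and exchanged labels 3 of 60 (289 of 6887). The 9 libraries with matching numbers gave 1 of 28 (55 of 3776). Fits without 1 library gave 0 to 1 (73 of 8480 to 196 of 6898). Hypertrophic against dystrophic gave 16 of 75 without a filter (4382 of 13281) and 0 of 11 with only these conditions fitted (20 of 2573). The 9 libraries gave 1 of 28 (155 of 3776). Without dystrophic replicate 1 it gave 5 of 50 (542 of 6184), the lowest without 1 library. The highest was 16 of 53 (1332 of 6390), without hypertrophic replicate 6. With labels exchanged it gave 7 of 60, of which 6 were higher (344 of 6887, of which 266 were higher). Hypertrophic against WT gave 13 of 60 by DESeq2 (1724 of 6887) and 10 of 75 without a filter (1120 of 13281). It gave 0 of 17 with only these conditions fitted (50 of 3249) and 0 of 60 with labels exchanged (188 of 6887). The 9 libraries gave 2 of 28 (136 of 3776). Without 1 library it gave from 4 of 71 (248 of 8480), without WT replicate 2, to 13 of 53 (819 of 6390), without hypertrophic replicate 6. With labels exchanged, the log2 fold changes of Mrps17 in hypertrophic against WT (0.77) and of Mrps2 (1.01), Mrpl28 (0.61) and Mrpl11 (0.46) in hypertrophic against dystrophic reversed. Over the edgeR alternatives the adjusted p of the named members ran from 0.0836 to 1. The causes were not tested. At the depth of WT replicate 1 a member below about 110 CPM, the level of 3 reads, could not be told from 0.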

Other observations

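Of the 77 genes, 18 have a coding gene starting on the opposite strand within 1000 bases. Over these pairs both genes had reads in 26 pairs of a gene pair and a library, and 1 of them in 91. The pseudogene symbols Mrpl23-ps1, Mrpl48-ps, Mrps36-ps1 and Mrps36-ps2 had 0 reads in all libraries. Members lay on 17 chromosomes, most of them, 10, on chromosome 11.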
